A study of Danio rerio with 6 samples.

Results

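The exocrine pancreas serine proteases were followed in 5 dpf zebrafish larvae through 9 genes of 27335 in the deposited table. They were 3 trypsinogens (*prss1*, *prss59.1* and *prss59.2*), 3 chymotrypsinogens (*ctrb1*, *zgc:136461* and *ctrl*) and 3 elastases (*ela2*, *ela2l* and *ela3l*). The genes were chosen by symbol. The table holds 8 of them under these symbols, and *prss1* under its older symbol *try*, which the RefSeq gene table gives as a synonym. RNA came from 3 pools of 25 maternal zygotic (MZ) *tafazzin* mutant larvae and from 3 pools of 25 wild-type larvae, all at 5 dpf, 1 library per pool. The mutants were homozygous for a CRISPR/Cas9 frameshift allele of *tafazzin*, a single mutant line, and had wild-type *tafazzin* product from neither the mother nor their own genome, and the wild-type larvae carried no mutant allele. The methods speak of 1 clutch for both genotypes, whereas the results describe an incross of mutants and another of their wild-type siblings. Genotype and parental cross cannot be told apart. Whole larvae were extracted, and an acinar transcript is therefore measured against the RNA of all other tissues. Fewer acinar cells and less of a transcript per acinar cell cannot be told apart in such pools.

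Acinar cells of the exocrine pancreas make digestive enzymes, store the proteases as inactive zymogens in granules and release them into the gut. There the membrane protease enteropeptidase cleaves trypsinogen, and trypsin then activates the chymotrypsinogens, the proelastases and further trypsinogen. Trypsin cuts after basic residues, chymotrypsin after large hydrophobic or aromatic residues, and elastase after small ones. In zebrafish these genes are among the usual markers of differentiated acinar tissue, and the transcription factor Ptf1a is needed for that tissue to form.

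FPKM, a fragment count divided by gene length and by library size, summed to 501725 to 522531 in mutant pools and to 512587 to 540974 in wild-type pools. The number of reads per library was not used here. By the FPKM step of a single fragment in weakly expressed genes, the other mutant pools held 1.26 and 1.29 times, and the wild-type pools 0.84 to 1.24 times, the fragments of mutant pool 0, with pools numbered 0 to 2 after the names of the columns. The *tafazzin* transcript was at 6.09, 4.58 and 3.84 FPKM in mutant pools and at 12.3, 12.0 and 8.53 FPKM in wild-type pools. Pool 2 of each genotype stood apart from the other pools of its genotype on the first principal component, in the same direction. Mutant pool 2 was at 26.41 against 12.48 and 11.69 for the other mutant pools, and wild-type pool 2 at -6.33 against -22.69 and -21.57 for the other wild-type pools. The numbers of proteases and of other acinar genes that passed are also given with single pools left out.

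In MZ *tafazzin* mutants the protease transcripts were together at 71.9% of their wild-type level. Their summed FPKM was 9063, 9274 and 8759 in mutant pools and 12409, 13081 and 12180 in wild-type pools. The highest mutant pool was thus well below the lowest wild-type pool. The 9 genes made up 1.77% ± 0.079 of all FPKM in the mutants and 2.39% ± 0.0443 in wild-type larvae (SD, n = 3 pools each). For 8 of the 9 genes every mutant pool lay below every wild-type pool, against 10.5% of the 21843 genes tested. The exception was *ela2l*, whose pools overlapped between genotypes.

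Each gene was tested on log2(FPKM + 1) with limma, together with every gene whose 6 pools averaged 0.5 FPKM or more (21843 genes), a filter that all 9 proteases passed. At a Benjamini-Hochberg adjusted p under 0.05 over all genes, 2 of the 9 fell, *zgc:136461* and *ela3l*, and the other 7 did not pass. Among all genes tested, 0.215% were lower at this threshold. At an unadjusted p under 0.05 from limma 8 of the 9 were lower, against 6.40% of all genes. No protease gene was higher at either limma threshold, against 0.696% and 9.88% of all genes, and 0.911% of all genes passed in either direction. The median log2 fold change of the 9 was -0.50, against 0.002 over all genes. With wild-type pool 2 left out, *prss1*, *prss59.1*, *prss59.2* and *zgc:136461* passed as lower in limma, but over all genes the lower calls also went up, to 104 (0.476%) against 47 with all pools. Without any 1 of the other 5 pools no protease passed, and 4 to 14 of all genes were lower. None passed either with no filter, after quantile normalization, or with limma fitted without its mean-variance trend. Over all genes 24, 57 and 14 were lower in those fits.

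**Figure D1:**
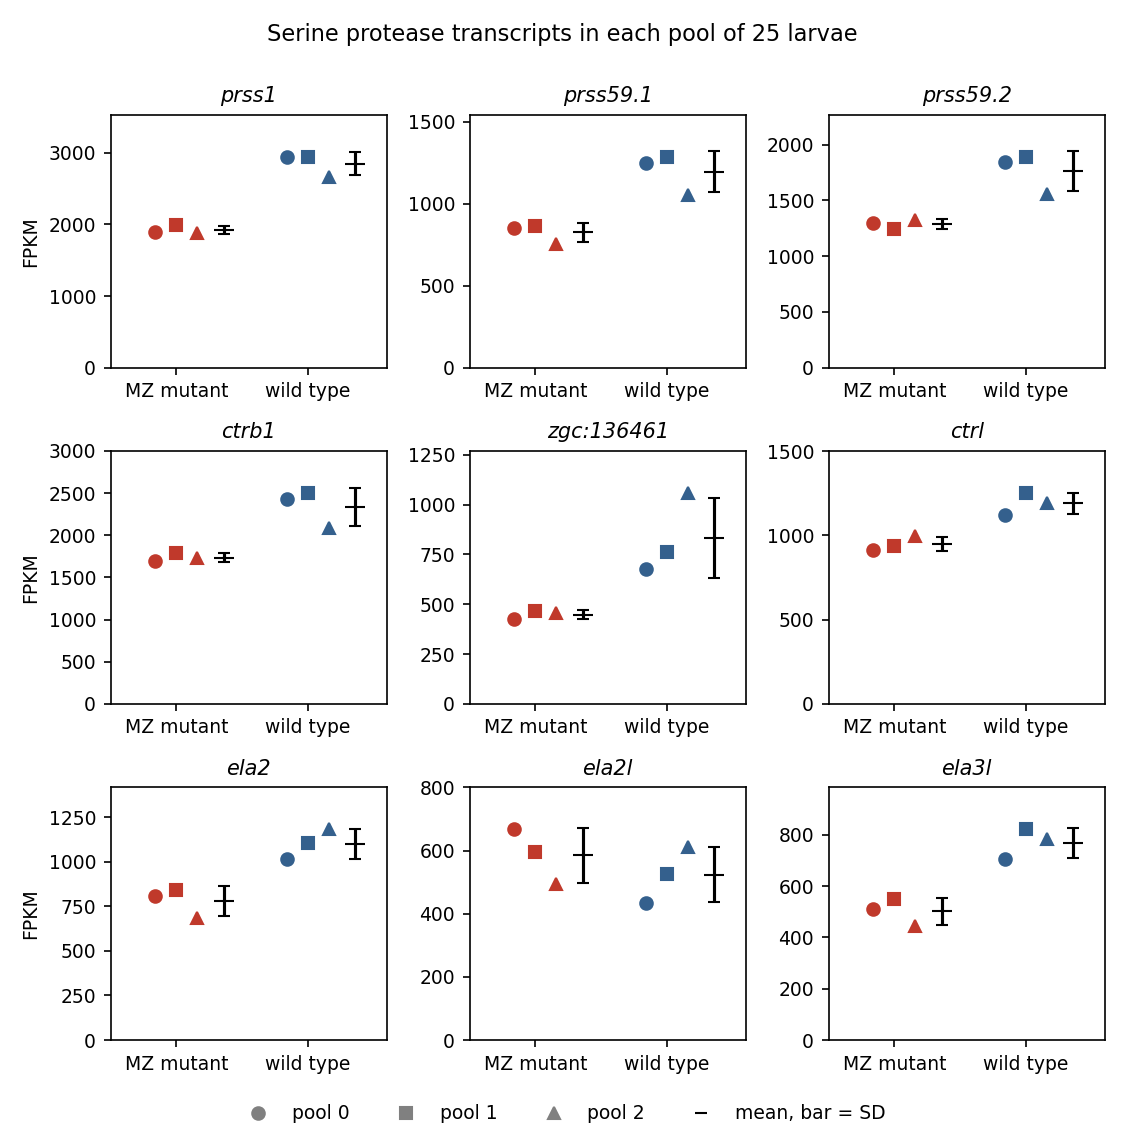
FPKM of the 9 serine protease genes in each pool of 25 larvae, with MZ *tafazzin* mutants in red and wild type in blue, symbols for the column number of the pool, and the mean with SD (n = 3) in black. Red and blue points do not overlap in 8 of the 9 panels, and they overlap for *ela2l*, where the mutant pools span 494 to 667 FPKM and the wild-type pools 435 to 612 FPKM.

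The trypsinogens had the highest and the third highest levels of the 9 genes. The *prss1* transcript, on chromosome 16 of GRCz11 from 25080758 to 25085306, was at 1896, 1992 and 1883 FPKM in mutant pools and at 2940, 2942 and 2661 FPKM in wild-type pools. All mutant pools were low and close together, and the lowest wild-type pool was pool 2. Its mean was 1924 ± 59.7 FPKM in mutants and 2848 ± 162 FPKM in wild-type larvae (SD, n = 3 pools each), and it ranked 12th of all genes by mean FPKM. The mutant mean was 67.5% of wild-type, with a log2 fold change of -0.56 ± 0.11 (SE, limma adjusted p = 0.0569). After quantile normalization the log2 fold change was -0.16 (limma adjusted p = 0.359). That step sets the pools to equal values at each rank, so only a change of rank shows after it.

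The *prss59.1* and *prss59.2* genes, further trypsinogens, lie 3514 bp apart on chromosome 16, from 26012568 to 26013851 and from 26017365 to 26018682. The *prss59.1* transcript was at 854, 863 and 757 FPKM in mutant pools and at 1247, 1285 and 1053 FPKM in wild-type pools, with pool 2 the lowest of each genotype. The *prss59.2* transcript was at 1299, 1239 and 1323 FPKM in mutant pools and at 1842, 1889 and 1554 FPKM in wild-type pools. Neither passed, although neither overlapped between genotypes. The log2 fold changes were -0.53 for *prss59.1* (SE 0.11, limma adjusted p = 0.0674) and -0.45 for *prss59.2* (SE 0.11, limma adjusted p = 0.102). Genes of this kind can be near-identical copies, and how the authors assigned fragments that map to several genes is not given in the sources used here, so the split between the pair is uncertain. Their ratio, *prss59.1* over *prss59.2*, was 0.658, 0.697 and 0.572 in mutant pools and 0.677, 0.680 and 0.677 in wild-type pools, and the genotypes overlapped.

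Among the chymotrypsinogens, *zgc:136461* had the largest log2 fold change of the 9 genes in absolute size. The current RefSeq table calls it *ctrb.2*, and calls *ctrb1*, its neighbour on chromosome 7, *ctrb.1*. The *zgc:136461* transcript, from 35068035 to 35069795, was at 424, 466 and 456 FPKM in mutant pools and at 675, 760 and 1057 FPKM in wild-type pools. The mutant pools were within a narrow range, while wild-type pool 2 was far above the other wild-type pools. The mean was 448 ± 22.1 FPKM in mutants and 831 ± 201 FPKM in wild-type larvae (SD, n = 3 pools each), so that the mutant mean was 54.0% of wild-type. The transcript fell by a log2 fold change of -0.86 ± 0.16 (SE, limma adjusted p = 0.0459). Without wild-type pool 2 the log2 fold change was -0.68 and the limma adjusted p 0.0244. Removing any of the other 5 pools ended the call, and over all 6 such fits the limma adjusted p lay between 0.0244 and 0.154.

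The *ctrb1* transcript, a chymotrypsinogen B on chromosome 7 from 35076020 to 35078567, was the second most abundant protease. It was at 1690, 1791 and 1725 FPKM in mutant pools and at 2425, 2500 and 2085 FPKM in wild-type pools. Here wild-type pool 2 was the lowest of the wild-type pools, the reverse of its place for *zgc:136461*. The log2 fold change was -0.42 ± 0.11 (SE, limma adjusted p = 0.122), and the mutant mean was 74.3% of wild-type. The chymotrypsin-like *ctrl*, on chromosome 15 from 37820866 to 37829161, was at 911, 936 and 995 FPKM in mutant pools and at 1124, 1251 and 1195 FPKM in wild-type pools. The log2 fold change of *ctrl* was -0.33 ± 0.10 (SE, limma adjusted p = 0.142). After quantile normalization it was -0.15 for *ctrl* and -0.14 for *ctrb1*.

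Of the elastases, *ela3l* fell and *ela2* and *ela2l* did not pass. The *ela3l* transcript, on chromosome 5 from 26111595 to 26118850, was at 512, 548 and 444 FPKM in mutant pools and at 706, 821 and 782 FPKM in wild-type pools. It fell to 65.2% of wild-type, with a log2 fold change of -0.62 ± 0.11 (SE, limma adjusted p = 0.0433). The genotypes did not overlap, and removing any single pool ended the call (limma adjusted p = 0.0545 to 0.132). The *ela2* transcript, on chromosome 8 from 21376288 to 21381734, was at 809, 843 and 683 FPKM in mutant pools and at 1014, 1107 and 1181 FPKM in wild-type pools. Its log2 fold change was -0.50 ± 0.11 (SE, limma adjusted p = 0.0807). The mutant mean of *ela2* was 70.7% of wild-type, and its genotypes did not overlap either.

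The *ela2l* gene lies 3845 bp from *ela2*, on chromosome 8 from 21369054 to 21372443. It was at 667, 595 and 494 FPKM in mutant pools and at 435, 526 and 612 FPKM in wild-type pools. Mutant pool 0 was the highest of the 6 and wild-type pool 0 the lowest, and the genotypes overlapped. The log2 fold change was 0.16 ± 0.15 (SE, limma adjusted p = 0.639), with a 95% interval from -0.18 to 0.50, which holds both a moderate rise and a small fall. The RefSeq table lists *ctrc* as a synonym of *ela2l*, and in mammals chymotrypsin C is known to cleave trypsinogen and so to regulate its activation. The ratio of *ela2* to *ela2l* was 1.21, 1.42 and 1.38 in mutant pools and 2.33, 2.11 and 1.93 in wild-type pools. The mutant ratios were all below the wild-type ratios, whose lowest value was in pool 2. A ratio within a library does not depend on how the library was scaled. This ratio was chosen after its values were seen and was not tested.

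**Figure D2:**
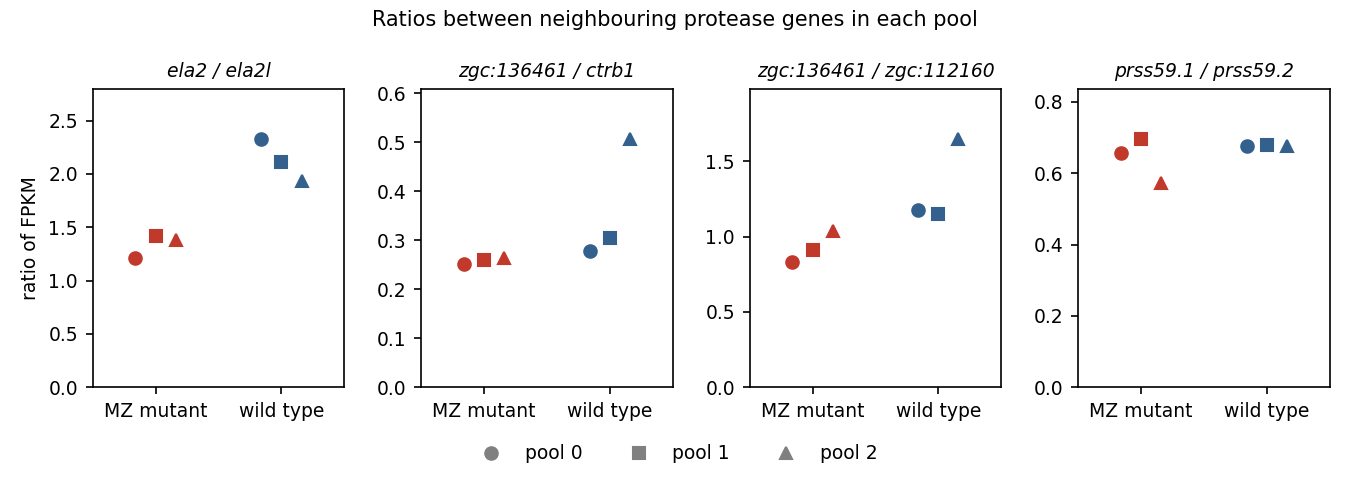
Ratio of FPKM between neighbouring protease genes in each pool, MZ *tafazzin* mutants in red and wild type in blue, with symbols for the column number. The *ela2* to *ela2l* ratio is 1.21 to 1.42 in mutant pools and 1.93 to 2.33 in wild-type pools, while the *prss59.1* to *prss59.2* ratio overlaps between genotypes.

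The chymotrypsinogen cluster on chromosome 7 holds a further gene, *zgc:112160*, called *ctrb.3* in the RefSeq table, 1578 bp from *zgc:136461*. It was at 510, 510 and 439 FPKM in mutant pools and at 570, 660 and 640 FPKM in wild-type pools (log2 fold change -0.36 ± 0.10 SE, limma adjusted p = 0.135). The ratio of *zgc:136461* to *zgc:112160* was 0.831, 0.914 and 1.04 in mutant pools and 1.18, 1.15 and 1.65 in wild-type pools. That of *zgc:136461* to *ctrb1* was 0.251, 0.260 and 0.264 in mutant pools and 0.278, 0.304 and 0.507 in wild-type pools. Both ratios were lower in every mutant pool, and in both the gap to the mutants was widest for wild-type pool 2. As with the elastases, these ratios were chosen after their values were seen and were not tested. The genes of the cluster may share fragments, as above.

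The order of levels was the same in both genotypes for the first 3 genes, *prss1*, *ctrb1* and *prss59.2*, each apart from the next in all pools. FPKM is scaled to length, which allows this comparison between genes. The scaling does not settle fragments shared between *prss59.1* and *prss59.2* or within the chymotrypsinogen cluster. The places of those genes in the order are therefore uncertain. In mutants *ctrl*, *prss59.1*, *ela2*, *ela2l*, *ela3l* and *zgc:136461* followed in this order. Of these neighbours, *prss59.1* and *ela2* overlapped, as did *ela2l* with *ela3l* and *ela3l* with *zgc:136461*. In wild-type larvae the order was *prss59.1*, *ctrl*, *ela2*, *zgc:136461*, *ela3l* and *ela2l*. There, all neighbours from *prss59.1* to *ela3l* overlapped, and *ela2l* was below *ela3l* in all pools. The coefficient of variation between pools was 2.98% to 14.8% in mutants (median 4.93%) and 5.35% to 24.2% in wild-type larvae (median 9.47%). The most variable member was *ela2l* in the mutants and *zgc:136461* in wild-type larvae.

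Within the summed protease FPKM, *prss1* took the largest share, 21.3% ± 0.327 in mutants and 22.7% ± 0.938 in wild-type larvae (SD, n = 3 pools each). The *ela2l* transcript took 7.36%, 6.42% and 5.64% in mutant pools and 3.51%, 4.02% and 5.03% in wild-type pools. Every mutant share of *ela2l* was thus above every wild-type share, and its mean share was 2.29 percentage points higher. The *ctrl* share was also higher in every mutant pool, at 10.5% ± 0.743 in mutants and 9.48% ± 0.383 in wild-type larvae, a difference of 1.03 percentage points that was 0.598 without mutant pool 2. The *prss1* share was lower in every mutant pool, a difference of -1.38 percentage points that was -0.871 without wild-type pool 0. So was that of *zgc:136461*, at 4.97% ± 0.268 in mutants and 6.64% ± 1.78 in wild-type larvae, a difference of -1.68 percentage points that was -0.657 without wild-type pool 2. The other 5 shares overlapped between genotypes. For the 4 shares that did not overlap the two-sided exact permutation test gave p = 0.1, the smallest that 3 pools against 3 allow, and 0.225 after adjustment over the 9 shares. No share could pass the threshold in this test. Shares sum to a whole and are therefore not independent of each other. The FPKM of *ela2l* itself overlapped between genotypes, while the summed protease FPKM was lower in every mutant pool.

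**Figure D3:**
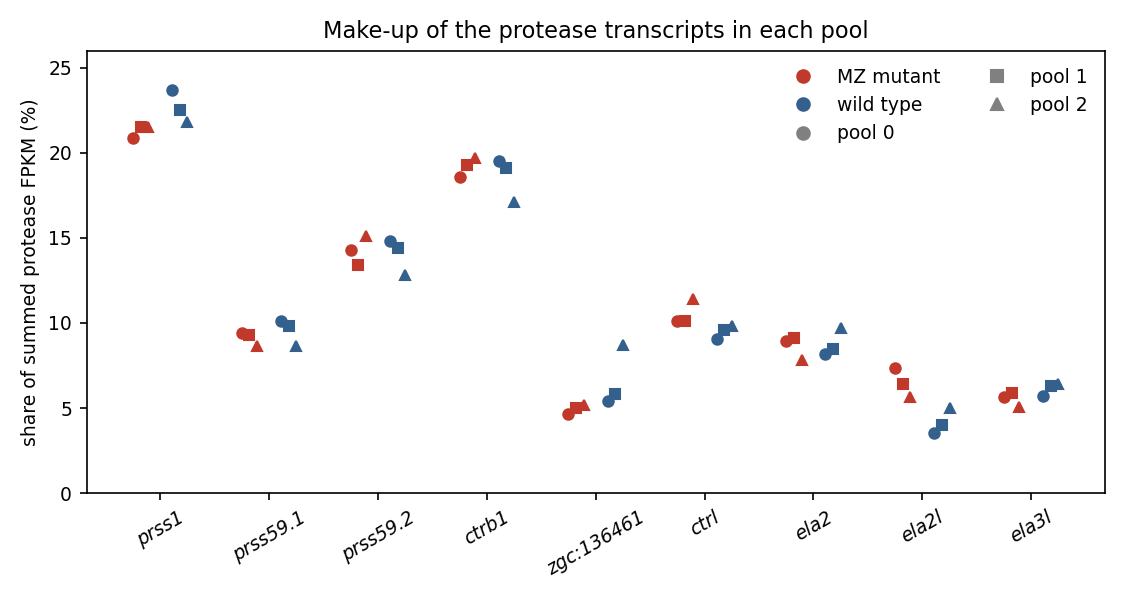
Share of each gene in the summed FPKM of the 9 proteases, in percent, per pool, with MZ *tafazzin* mutants in red left of wild type in blue. The *ela2l* share is 5.64% to 7.36% in mutant pools and 3.51% to 5.03% in wild-type pools.

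Other products of acinar cells were listed beside the proteases, and 18 of 27 listed symbols were found as further rows of the table. Of the 17 that passed the filter, 3 fell, none rose and 14 did not pass. Over all genes tested, 0.215% were lower and 0.696% higher in this fit. The genes that fell were *cel.1*, a bile salt-stimulated lipase, *amy2a*, a pancreatic amylase, and *endou*, a poly(U)-specific endoribonuclease and no digestive enzyme. The *cel.1* transcript was at 73.5, 81.4 and 61.5 FPKM in mutant pools and at 133, 139 and 123 FPKM in wild-type pools (log2 fold change -0.86 ± 0.11 SE, limma adjusted p = 0.0164). The *amy2a* transcript was at 91.8, 103 and 71.1 FPKM in mutant pools and at 139, 173 and 166 FPKM in wild-type pools (log2 fold change -0.85 ± 0.14 SE, limma adjusted p = 0.0361). The *endou* transcript was at 6.20, 5.39 and 6.17 FPKM in mutant pools and at 14.2, 16.7 and 13.8 FPKM in wild-type pools (log2 fold change -1.20 ± 0.12 SE, limma adjusted p = 0.00824). The call of *amy2a* ended when any single pool was removed, that of *cel.1* without mutant pool 0 or wild-type pool 0 or 1, and that of *endou* without wild-type pool 0. With no trend *cel.1* (limma adjusted p = 0.0715) and *amy2a* (0.114) did not pass, and with no filter *amy2a* did not (0.0622). For 13 of the 17 the genotypes did not overlap, with mutants lower, against 10.5% of all genes tested. A negative log2 fold change was seen for 16 of them, against 10830 of the 21843 genes tested. The median of the 17 was -0.44, close to the -0.50 of the proteases. With wild-type pool 2 left out 5 of these genes passed in limma, and without wild-type pool 0 none did, while 0.476% and 0.0183% of all genes were lower in those fits, so that the count of the list moved with that of all genes.

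Among the acinar genes that did not pass, *cpa5*, a carboxypeptidase A and the most abundant of this list, was at 741, 760 and 731 FPKM in mutant pools and at 941, 942 and 875 FPKM in wild-type pools. Of genes named here after their values were seen, the carboxypeptidase B gene *cpb1* was at 279 ± 18 FPKM in mutants and 380 ± 16.4 FPKM in wild-type larvae (SD, n = 3 pools each, limma adjusted p = 0.0568). The zymogen granule protein syncollin, *sycn.2*, was at 117 ± 16.1 FPKM in mutants and 158 ± 12.4 FPKM in wild-type larvae. The *c6ast4* transcript was at 256 ± 17.8 FPKM in mutants and 281 ± 25.4 FPKM in wild-type larvae (limma adjusted p = 0.542). It overlapped between genotypes, as did *pla2g1b* (log2 fold change -0.40). The only positive log2 fold change of the list, 0.22, was that of *zgc:92137*, the amylase-family gene *amy2al2* of the RefSeq table, which overlapped between genotypes. A second amylase-family gene of the list, *zgc:66313*, was under 1 FPKM in all pools.

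**Figure D4:**
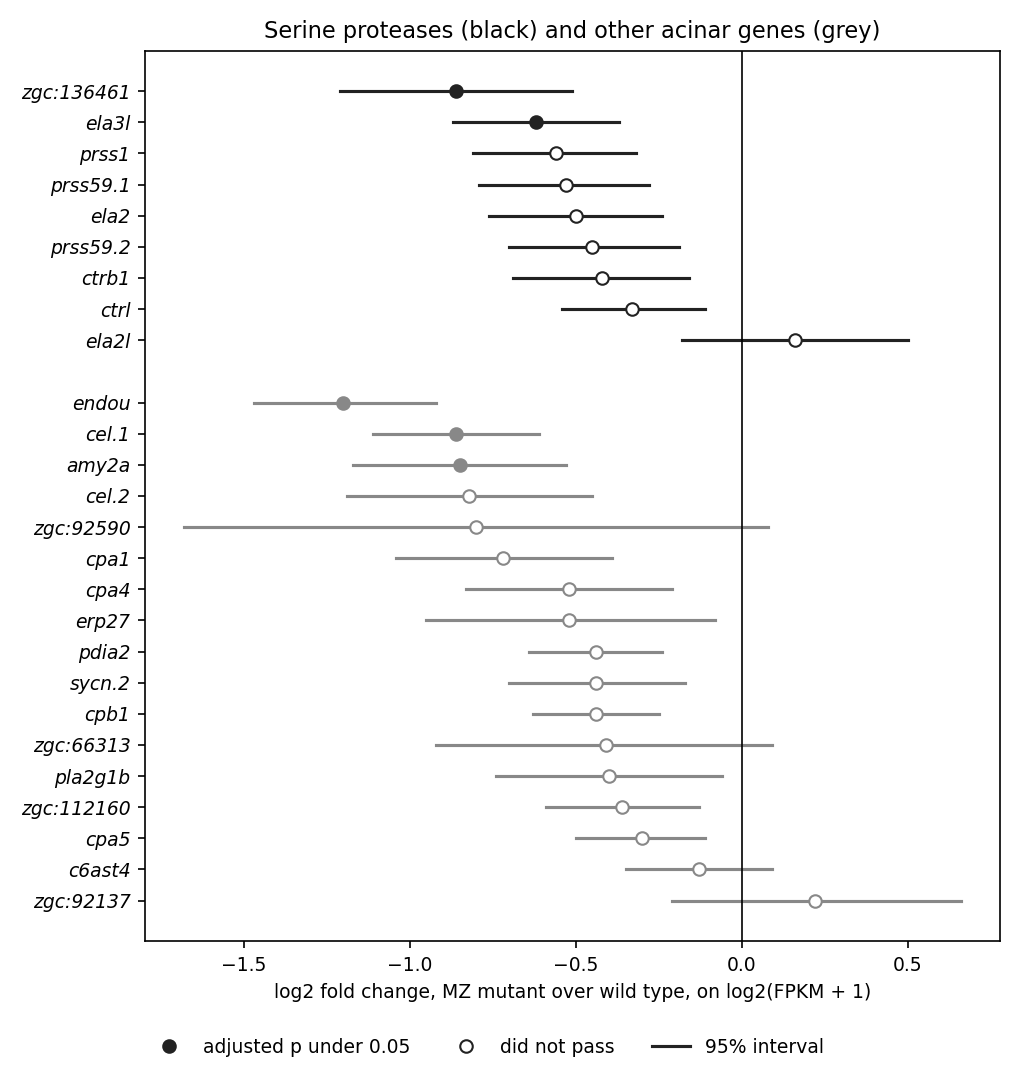
Log2 fold change with its 95% interval from limma for the 9 proteases in black and 17 other acinar genes in grey, filled where the adjusted p was under 0.05. Filled points are *zgc:136461*, *ela3l*, *endou*, *cel.1* and *amy2a*, and *ela2l* and *zgc:92137* are the points right of zero.

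Genes that act on zymogens or on trypsin were mixed. Of 12 tested genes of zymogen activation and protease inhibition, *spink4* fell and 11 did not pass. At an unadjusted p under 0.05 in limma 5 were lower and 2 higher, against 6.40% and 9.88% of all genes tested. The list summed to 509 to 545 FPKM in mutant pools and 552 to 588 FPKM in wild-type pools, with no overlap. The *spink4* gene encodes a Kazal-type protease inhibitor, known in mammals from intestinal goblet cells, and was at 19.8, 21.0 and 18.1 FPKM in mutant pools and at 42.0, 34.6 and 40.8 FPKM in wild-type pools (log2 fold change -0.96 ± 0.11 SE, limma adjusted p = 0.00922). That call was lost without mutant pool 0 or wild-type pool 0, and with no trend. The enteropeptidase gene *tmprss15*, named after its values were seen, was at 0.729, 1.25 and 0.0807 FPKM in mutant pools and at 1.68, 2.02 and 1.68 FPKM in wild-type pools (limma adjusted p = 0.214). The α1-antitrypsin gene *serpina1* was at 109 ± 11.2 FPKM in mutants and 134 ± 10.2 FPKM in wild-type larvae (SD, n = 3 pools each, limma adjusted p = 0.203). The cathepsin B gene *ctsba*, whose mammalian product can activate trypsinogen, was at 75.2 ± 5 FPKM in mutants and 66 ± 3.35 FPKM in wild-type larvae (limma adjusted p = 0.327).

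None of 13 transcription factors of pancreas or foregut passed by limma, though 1 was higher and 2 were lower by unadjusted p under 0.05, and their median log2 fold change was -0.21. Over all genes tested, 9.88% were higher and 6.40% lower at that unadjusted threshold. The acinar regulators *ptf1a*, *rbpjl* and *bhlha15*, named after their values were seen, were low. The *rbpjl* transcript, whose product is a subunit of the PTF1 complex in adult mouse acinar cells, was at 1.92, 1.05 and 1.99 FPKM in mutant pools and at 2.80, 4.85 and 3.93 FPKM in wild-type pools (limma adjusted p = 0.115). The *ptf1a* transcript was at 2.71, 2.42 and 1.46 FPKM in mutant pools and at 4.18, 2.91 and 2.1 FPKM in wild-type pools, and the genotypes overlapped. So did they for *bhlha15*, at 2.36, 3.05 and 2.42 FPKM in mutant pools and 4.2, 3.01 and 5.09 FPKM in wild-type pools. At a few FPKM, sampling of fragments limits what these values can show. Of the more abundant *xbp1*, a factor of secretory cells and of the unfolded protein response, the level was 76.9 ± 9.72 FPKM in mutants and 61.3 ± 7.13 FPKM in wild-type larvae (SD, n = 3 pools each, limma adjusted p = 0.230). The *nr5a2* transcript was at 7.94, 8.71 and 9.13 FPKM in mutant pools and at 10.6, 9.86 and 10.3 FPKM in wild-type pools. It did not pass (limma adjusted p = 0.339), although the genotypes did not overlap. For *gata6* and *sox9b* the log2 fold changes were 0.02 and -0.04. None of 9 cholecystokinin, secretin, VIP and muscarinic ligand or receptor genes passed by limma, and none did at an unadjusted p under 0.05.

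Marker lists of neighbouring organs and other tissues were set beside the proteases. Summed over 16 endocrine pancreas genes, FPKM was 284 to 336 in mutant pools and 254 to 293 in wild-type pools, and none of the 14 tested passed by limma, though 2 were higher and none lower by unadjusted p under 0.05. Insulin, *ins*, was at 34.2, 36.1 and 49.7 FPKM in mutant pools and at 31.7, 35.9 and 26.6 FPKM in wild-type pools. The 12 liver genes summed to 3418 to 3525 FPKM in mutant pools and 3106 to 3521 FPKM in wild-type pools, and the 12 intestine genes to 2225 to 2447 FPKM in mutant pools and 2045 to 2517 FPKM in wild-type pools. None of either list passed by limma, though without adjustment 5 liver genes were higher and 1 lower, and 1 intestine gene was higher and 1 lower, by p under 0.05. Over all genes tested, 9.88% were higher and 6.40% lower without adjustment. Among the 4 most abundant genes of each list, *fabp10a* of liver and *fabp2* of intestine were at 376 ± 22.3 and 292 ± 19.7 FPKM in mutants. In wild-type larvae they were at 386 ± 46.3 and 303 ± 30.3 FPKM (SD, n = 3 pools each). The others of liver were *apoa2* (log2 fold change -0.06), *tfa* (-0.28) and *rbp4* (0.40). Those of intestine were *apoa1a* (0.12), *cyp3a65* (-0.23) and *fabp6* (-0.27). Without passing, 4 liver genes and 1 intestine gene lay higher in every mutant pool (11.9% of all genes tested did), and they are named after their values were seen. They were the fibrinogen genes *fga*, *fgb* and *fgg* and the retinol-binding *rbp4* of liver, with log2 fold changes of 0.40 to 0.60, and the apolipoprotein gene *apoa4b.2* of intestine, at 141 ± 23.8 FPKM in mutants and 85.1 ± 10.8 FPKM in wild-type larvae (log2 fold change 0.72, limma adjusted p = 0.0521). The *rbp4* transcript was at 800 ± 89.5 FPKM in mutants and 608 ± 79.9 FPKM in wild-type larvae (SD, n = 3 pools each, limma adjusted p = 0.173). Also named after its values were seen, *cdx1b* of intestine lay lower in every mutant pool, against 10.5% of all genes tested. It was at 5.33 ± 0.441 FPKM in mutants and 7.69 ± 0.329 FPKM in wild-type larvae (limma adjusted p = 0.122). None of the 12 listed liver genes lay lower in every mutant pool. The α1-antitrypsin genes *serpina1* and *serpina1l*, listed here with the protease inhibitors, did. The 10 skeletal muscle genes summed to 18619 to 19054 FPKM in mutant pools and 18368 to 23648 FPKM in wild-type pools, and none passed by limma or at an unadjusted p under 0.05. The summed level of each of these 4 lists overlapped between genotypes, whereas that of the proteases did not. Nor did that of the other acinar genes, at 2177 to 2439 FPKM in mutant pools and 2975 to 3145 FPKM in wild-type pools. The sum of the zymogen activation and inhibition genes did not overlap either, as given above, but 6 of these genes had a negative and 6 a positive log2 fold change.

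A few markers outside the acinar lists did pass. Of 8 duct genes *ca2* rose, a carbonic anhydrase also known from skin ionocytes, to 89.7 ± 23.8 FPKM in mutants against 35.9 ± 2.45 FPKM in wild-type larvae (SD, n = 3 pools each, log2 fold change 1.27, limma adjusted p = 0.0155). The call ended without mutant pool 0 (0.0557), wild-type pool 0 (0.082) or wild-type pool 1 (0.0701), and with no trend (0.0692). The duct list summed to 537 to 669 FPKM in mutant pools and 517 to 596 FPKM in wild-type pools. Of its genes 4 had a negative and 4 a positive log2 fold change. At an unadjusted p under 0.05 in limma 2 were higher and 1 lower, against 9.88% and 6.40% of all genes tested. Of 12 markers of further larval tissues the epidermal keratin gene *cyt1* fell, to 385 ± 43.5 FPKM in mutants against 761 ± 161 FPKM in wild-type larvae (log2 fold change -0.96, limma adjusted p = 0.0361). That call ended when any pool other than wild-type pool 2 was removed (limma adjusted p = 0.0948 to 0.149), with no filter (0.0655) and with no trend (0.103). A second epidermal keratin gene, *krt4*, was at 2160, 2260 and 1805 FPKM in mutant pools and at 3100, 3257 and 2415 FPKM in wild-type pools (limma adjusted p = 0.167). These 12 markers summed to 7030 to 7432 FPKM in mutant pools and 7106 to 7982 FPKM in wild-type pools, and 4 had a negative and 8 a positive log2 fold change. The part of other tissues in the level of the proteases was not tested.

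**Figure D5:**
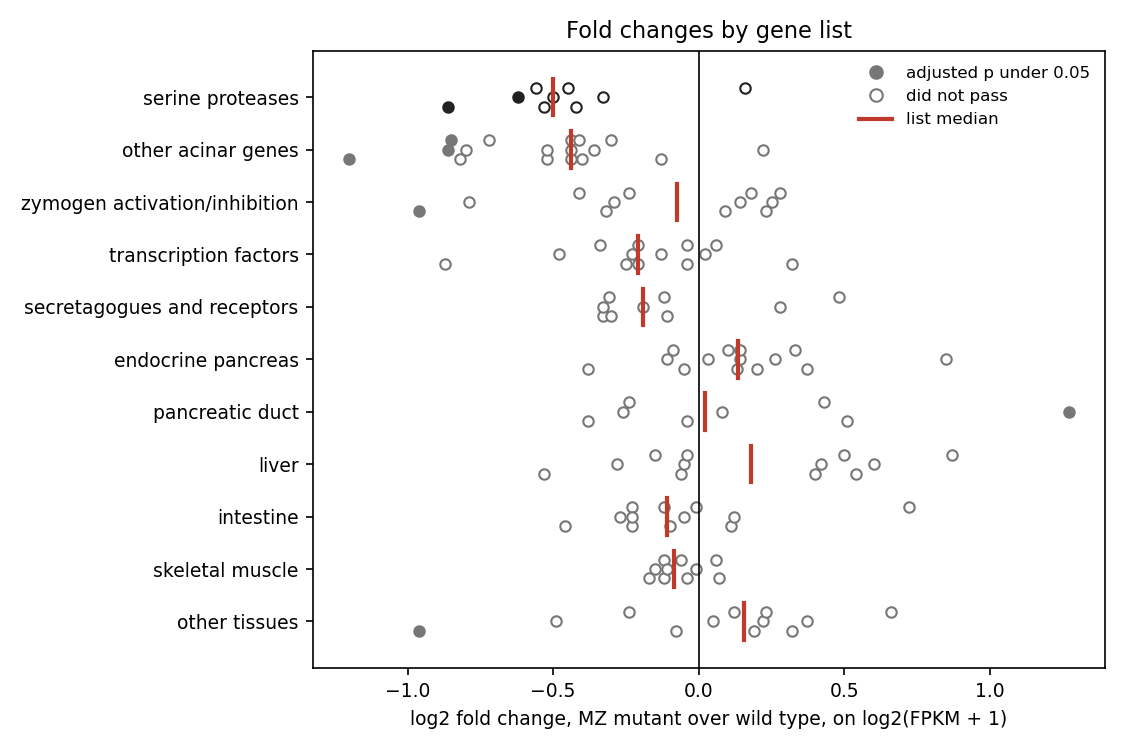
Log2 fold change of every tested gene of each list on log2(FPKM + 1), filled where the adjusted p from limma was under 0.05, with the list median as a red bar. The medians are -0.50 for the serine proteases and -0.44 for the other acinar genes, and lie between -0.21 and 0.18 for the other lists.

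Each protease was set against the mean log2(FPKM + 1) of the other 8 over the 6 pools, as a description. Pearson's r was 0.853 to 0.987 for 8 genes and -0.325 for *ela2l*. After the genotype means were taken out, r was 0.974 for *ela3l*, 0.792 for *ela2* and 0.456 for *ela2l*, and lay between -0.431 and 0.106 for the trypsinogens and chymotrypsinogens. No difference between the pools of 1 genotype was thus shared by all 9. Wild-type pool 2 was the lowest wild-type pool for *prss1*, *prss59.1*, *prss59.2* and *ctrb1*. It was the highest for *zgc:136461*, *ela2* and *ela2l*, and in between for *ctrl* and *ela3l*. Opposite differences cancel in a mean over genes, so a low r here does not mean that the pools were alike. Among 13253 further genes averaging 5 FPKM or more, the 10 most like the mean of the 9 proteases had r of 0.986 to 0.997 over the 6 pools, led by *dusp27* and *LOC101882461*, with *setd2*, *ghrb* (a growth hormone receptor), *cnot4b*, *LOC100536716*, *alx4a*, *atrnl1a*, *nlgn3a* and *LOC100535170*. In the table *LOC101882461* shares its locus with 10 other genes, and *LOC100535170* is listed at 0 in all mutant pools. These r values rest on 6 libraries in which the genotypes differ, and a gene with a clear gap between genotypes scores high. The acinar gene with the highest r was *amy2a*, at 0.979 and in place 22, and it kept an r of 0.967 without the genotype means. Next to it *cel.1* had 0.978 in place 26, and 0.678 without the genotype means. Among the other acinar genes averaging 5 FPKM or more, r without the genotype means ranged from -0.195 for *cpa1* to 0.98 for *zgc:112160*. It was 0.952 for *dusp27* and 0.946 for *LOC101882461*.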

How the data were processed

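Per the labels and the methods, reads were trimmed (Trim Galore 0.4.2) and aligned to GRCz11 (STAR 2.5.3), and the authors deposited FPKM per gene and pool from Cufflinks 2.2.1 and Cuffdiff. How fragments mapping to several genes were shared out is not stated there. The p-value and q-value columns of the deposited table hold the authors' own comparison and were not used, nor was the second table, a shorter list of genes with the same columns.

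Columns show the genotype but not the labelled sample, and were used as unlabelled replicates. The labels do not say whether pools had separate parents. The p-values set the difference between genotypes against the spread between these pools, which may not be independent replicates of a genotype. No pair of pools shared more than 0.06% of identical values. The 21843 genes averaging 0.5 FPKM or more were fitted as log2(FPKM + 1) in limma 3.58.1 (R 4.3.3) with a mean-variance trend. Fold changes on this scale understate those of low genes. Genes named are the 9 proteases, up to 4 per comparison list (those that passed, then the most abundant), and the 10 most like the proteases. Any further gene was named after its values were seen. The proteases and lists were chosen with earlier results of these data known. Fits were repeated without each pool, with the column number as blocking factor, without the trend, after median scaling or quantile normalization, with a 5 FPKM filter or none, and with 0.1 FPKM added in place of 1. Shares were also taken of the sum with other acinar genes. Python 3.11.15, pandas 2.3.3, SciPy 1.17.1 and matplotlib 3.10.9 were used. Symbols were matched with the RefSeq table of GRCz12tu, whose coordinates were not used.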

Additional observations from a re-analysis of the deposited data

How the results depend on the processing

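The 8 proteases with a negative log2 fold change kept that sign under all 13 alternatives, but most of these could not have changed it. The filters, the fit without trend and the block leave the estimate as it was. As these genes did not overlap between genotypes, leaving out 1 pool or adding 0.1 FPKM cannot turn the sign either. Only median scaling and quantile normalization could have done so. The log2 fold change of *ela2l* stayed positive, from 0.03 to 0.28. The number of proteases that passed as lower, 2, became 4 with a filter of 5 FPKM and 0 with no filter, with quantile normalization or with no trend, and lay between 0 and 4 with 1 pool left out. Lower over all genes were 47 of 21843 in the main fit and 65 of 13262 with a filter of 5 FPKM. They were 24 of 26426 with no filter, 57 with quantile normalization and 14 with no trend. Under quantile normalization the log2 fold change of *prss1* was -0.16, which the limma test gave an adjusted p of 0.359. Those of *ctrb1* and *ctrl* were -0.14 and -0.15 there. None passed as higher under any alternative. The number of other acinar genes that passed, 3, became 6 with a filter of 5 FPKM and 1 with no trend, and lay between 0 and 5 with 1 pool left out. Over all genes 199 passed, against 269 with a filter of 5 FPKM, 87 with no filter, 38 with no trend and 15 to 422 with 1 pool left out (422 without wild-type pool 2). Column numbers do not pair the pools by any label, and deviations of same-numbered pools correlated at 0.017, 0.004 and 0.054. With the column number as a replicate block 353 genes passed, among them 2 proteases and 4 other acinar genes. Absolute depth is unknown, which limits low genes such as *ptf1a*, *rbpjl* and *tmprss15* most.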
